A study of Homo sapiens with 2 samples.

Results

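Downstream alternative start sites are places inside a gene, well past its main start, where the annotation begins another protein-coding transcript. Members were the first bases of GENCODE 44 protein-coding transcripts on chromosomes 1-22 that lie 2 kb or more downstream of the MANE Select start of the same gene and inside that gene, with 1 kept per 500 bp, the most upstream. MANE Select is the 1 transcript per gene that Ensembl and RefSeq agreed on as the default. The rule gave 12329 sites in 6617 of the 18191 genes with a MANE Select transcript, out of 75398 distinct annotated protein-coding starts. The rule used the annotation alone and no value of the nucleosome list.

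The list comes from ARPE-19, a widely used line of human retinal pigment epithelial cells, in 1 group of 2 samples labelled as batch 1 and batch 2. Both were kept in normal culture, were in interphase, and carried no treatment or genetic change that the labels name. Lysed cells were digested with micrococcal nuclease for 5 min at 37 °C, which cuts between nucleosomes, and fragments of about 150 bp were sequenced. There was no treated or control arm, and RNA, which could check the cell type or show which starts were in use, was not analysed here.

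Many genes have alternative promoters, which make transcripts with another first exon and, often, a protein with another N-terminus. At an active start the promoter is usually kept open, with the first nucleosome placed a short, fixed distance downstream and further nucleosomes spaced behind it. CpG islands are stretches rich in G, C and CpG dinucleotides that cover many promoters of widely expressed genes. DNA that rich in G and C can also be recovered differently by nuclease digestion and sequencing.

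The upstream DNA of 5 genes shows the kinds of site that were compared. Each line gives the 100 bases just before a start, 5′ to 3′ on the gene's strand, read from hg38 and overlapping no annotated exon. Capitals mark CpG dinucleotides. TP63 encodes a transcription factor of epithelia whose downstream start makes the ΔN form, and both of its starts lie outside islands. RUNX1, a blood transcription factor, has a downstream start in an island. MACF1 and DST encode large linkers of the cytoskeleton, and MITF encodes a regulator of pigment cells whose farthest downstream start here makes the melanocyte form.
TP63 MANE start, chr3:189631289-189631388 (+): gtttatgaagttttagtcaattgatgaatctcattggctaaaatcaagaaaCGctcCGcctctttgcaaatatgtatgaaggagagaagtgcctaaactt
TP63 downstream start, chr3:189789559-189789658 (+): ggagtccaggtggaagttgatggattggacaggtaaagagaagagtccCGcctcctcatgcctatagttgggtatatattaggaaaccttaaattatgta
RUNX1 downstream start, chr21:34888691-34888790 (-): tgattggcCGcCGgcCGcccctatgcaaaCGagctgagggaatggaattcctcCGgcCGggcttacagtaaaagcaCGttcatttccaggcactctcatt
MACF1 MANE start, chr1:39204595-39204694 (+): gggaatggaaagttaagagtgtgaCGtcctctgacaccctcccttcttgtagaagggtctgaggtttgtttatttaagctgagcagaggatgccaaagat
MACF1 downstream start, chr1:39409403-39409502 (+): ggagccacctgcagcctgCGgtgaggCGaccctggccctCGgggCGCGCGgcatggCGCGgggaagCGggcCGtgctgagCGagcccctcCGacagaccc
DST MANE start, chr6:56954831-56954930 (-): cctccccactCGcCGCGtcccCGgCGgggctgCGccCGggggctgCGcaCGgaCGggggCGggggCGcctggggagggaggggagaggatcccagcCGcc
DST downstream start, chr6:56542809-56542908 (-): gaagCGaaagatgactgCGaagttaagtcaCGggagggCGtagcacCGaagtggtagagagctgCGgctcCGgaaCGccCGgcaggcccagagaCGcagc
MITF downstream start, chr3:69936487-69936586 (+): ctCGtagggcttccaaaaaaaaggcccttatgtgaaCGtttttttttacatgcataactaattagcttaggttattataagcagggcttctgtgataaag
The printed stretches held 13 CpG before the DST MANE start, 12 before the MACF1 downstream start and 1 before the MACF1 MANE start. The DST downstream start shown had 10 CpG and 63% GC, although it lay outside an island by the definition used. The downstream starts of TP63 and MITF had 1 and 2 CpG, with 43% and 36% GC.

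The deposited list held 2634347 rows, each 1 bp wide, with no height, score or read depth, and 4 rows were repeats. It gave 2558490 distinct positions on chromosomes 1-22, or 0.928 per kb of determined sequence, and is read as called nucleosome positions. The density per chromosome ran from 0.765 per kb on chromosome 6 to 1.26 on chromosome 9. The list does not tell the batches apart, so no spread between replicates could be measured. Intervals below are exact 95% intervals that cover counting error only. They are too narrow where windows of nearby sites overlap and where positions cluster. Chromosomes are used to show spread and are not replicates.

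The downstream starts were mostly far from the main start and rarely in islands. Their median distance from the MANE start was 25523 bp, with quartiles of 8395 and 75343 bp and a largest distance of 2222660 bp. Of the 6617 genes, 3778 had 1 such site, 28 had 10 or more, and the most in a gene was 16. Another member or a MANE start lay within 2 kb of 2146 of them. Only 559 sites (4.53%) lay in a CpG island, against 4429 (66.9%) of the 6617 MANE starts of the same genes. An island at the MANE start with none at any downstream start was found in 4143 genes, the reverse in 177, islands at both in 286, and islands at neither in 2011. The median GC content from -200 to +50 bp was 70% at the sites in islands and 46.4% at those outside, and 72% and 57.2% at the MANE starts.

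The annotation of these starts was of mixed quality. At 6802 sites (55.2%) the transcript was annotated with a complete start, and at 5527 (44.8%) every transcript carried a tag saying that the start of the RNA or of the coding sequence was not found. Outside islands, 5392 of the 6382 complete starts lay in a MANE intron, whereas 5039 of the 5388 starts not found lay in a MANE exon. In all, 6181 sites were in MANE exons, 1097 of them at the first base of the exon, 6123 were in MANE introns, and 25 were beyond the MANE transcript. Most sites, 9595, fell between the start and end of the MANE coding sequence, 2697 came before it, and 37 after it. A tag for support from CAGE, which captures the capped 5′ ends of RNA, was present at 451 sites (3.66%).

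The bases at the start itself separated the sets further. Transcription often begins at a pyrimidine followed by a purine, that is at CA, CG, TA or TG with the second base as the first of the RNA. This was so at 79.9% of MANE starts of the same genes, at 42.3% of complete downstream starts outside islands, at 47.4% of those in islands, and at 22.6% of the starts not found outside islands. With a CAGE tag the share was 56.0% outside islands (225 of 402 sites). Introns end in AG just before an exon, and AG stood at -2 and -1 before 15.3% of all downstream starts (1892 sites), 1.15% of MANE starts and 99.9% of internal exon starts of the same genes. Among starts in MANE introns with a complete annotation, outside islands, that share was 6.32% (341 of 5392). These are matches of letters on the gene's strand and show no binding or use.

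Promoter motifs were likewise rarer at the downstream starts. The letters GGGCGG, the core of a GC box bound by SP factors, searched on both strands from -100 to -1, occurred before 6.95% of downstream starts and 53.3% of MANE starts. In islands the shares were 48.8% and 66.8%, and outside islands 4.96% and 26.0%. Internal exon starts held it in 2.61%. TATAAA on the gene's strand from -40 to -16, where a TATA box would lie, preceded 98 downstream starts (0.795%), 1.74% of MANE starts and 1.09% of internal exon starts.

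The first nucleosome behind the start was the main difference between downstream and MANE starts. MANE starts of the same genes had a sharp maximum of listed positions in the 25 bp bin that ends at +150 bp, of 2.38 per kb in islands and 3.31 per kb outside. The downstream starts had no such maximum. Those outside islands were highest at +75 to +100 bp, at 1.29 per kb, and those in islands reached 0.716 per kb in the same bin, from 10 positions. The MANE starts also showed a smaller maximum at +300 to +325 bp, of 0.723 per kb in islands and 1.46 outside. The downstream starts outside islands had 1.02 per kb in that bin. Over the window from +270 to +350 bp outside islands, their log2 ratio to the flanks was different from that of the MANE starts by -0.35 (-0.57 to -0.12), below 0 on 17 of 22 chromosomes. With the GC expectation the difference shrank to -0.23 (-0.46 to -0.0041). In islands that difference was -0.58 (-1.32 to 0.086), below 0 on 5 and above 0 on 6 chromosomes, and -0.97 (-1.71 to -0.30) with the GC expectation.

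**Figure D1:**
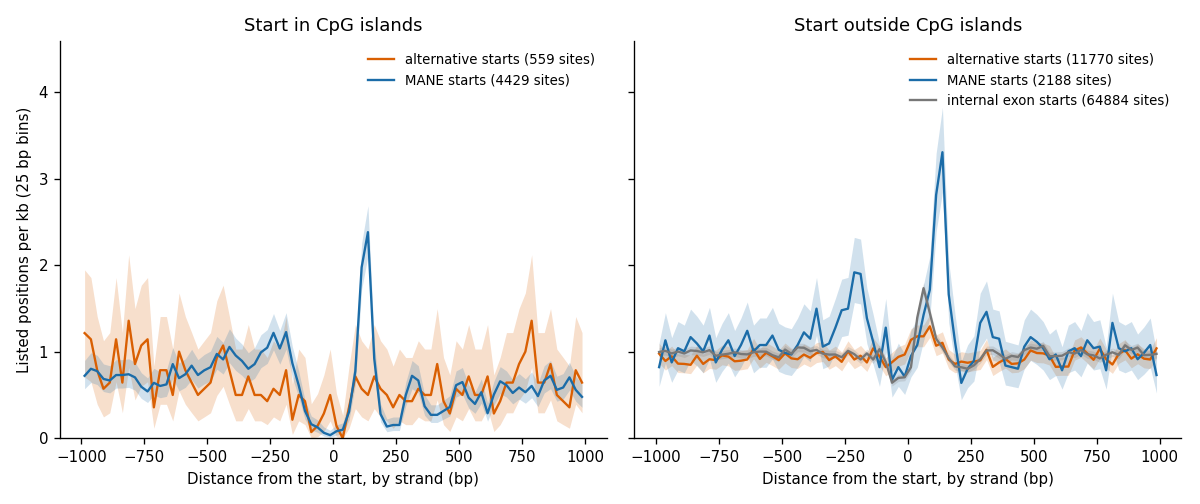
Listed nucleosome positions per kb in 25 bp bins against distance from the start by strand, for starts in CpG islands (left) and outside (right), with shaded exact 95% counting intervals. The MANE starts peak in the bin that ends at +150 bp in both panels, while the alternative starts outside islands reach 1.29 per kb at +75 to +100 bp, beside 1.74 at +50 to +75 bp for internal exon starts.

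The first nucleosome window below begins at +100 bp and is 75 bp wide. It was set with an earlier result of these data known and spans the maximum of the MANE starts. Comparisons in that window therefore favour the MANE starts. In it the downstream starts outside islands held 908 positions, or 1.03 per kb. Their flanks, 500 to 1000 bp on either side, had 0.934 per kb, a log2 ratio of 0.14 (0.041 to 0.24). With each base given the genome-wide density for its GC content, that ratio was 0.045 (-0.054 to 0.14). The MANE starts outside islands had 2.60 per kb against flanks of 1.03, a log2 ratio of 1.34 (1.19 to 1.49). The difference between the sets was -1.20 (-1.38 to -1.02), and it was below 0 on 22 of 22 chromosomes, with a mean of -1.26 ± 0.49 (SD over chromosomes).

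In islands the downstream starts held 25 positions in that window, 0.596 per kb against 0.739 in the flanks, a log2 ratio of -0.31 (-0.95 to 0.27). The direction was not fixed, since the ratio was 0.32 (-0.32 to 0.91) with the GC expectation and 0.22 (-0.59 to 0.93) for the most upstream site of each gene. The MANE starts in islands had 1.76 per kb and a log2 ratio of 1.47 (1.34 to 1.60). The difference was -1.78 (-2.44 to -1.18), below 0 on 11 of the 12 chromosomes where both sets had a position. Counted by site, 895 of the 12329 downstream starts (7.26%) had a position in the window, whereas 15.3% of all 18191 MANE starts did. Outside islands the count was 870 of 11770 (7.39%), against 17% of MANE starts. In islands it was 25 of 559 (4.47%, exact binomial interval 2.91 to 6.53%), against 14% of MANE starts.

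**Figure D2:**
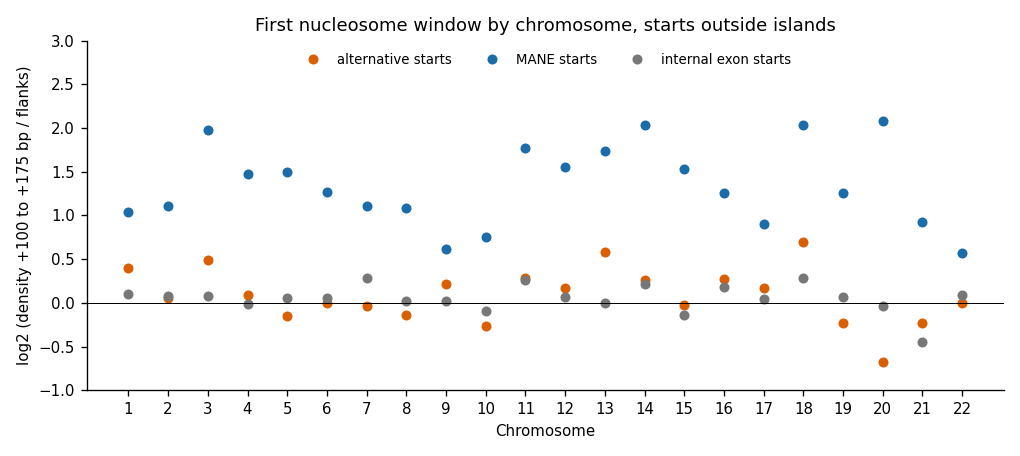
Log2 ratio of the density in the first nucleosome window to that of the flanks on each of chromosomes 1-22, for starts outside islands, 1 point per set and chromosome. MANE starts run from 0.57 on chromosome 22 to 2.08 on chromosome 20 and lie above the alternative starts on every chromosome. Alternative starts run from -0.68 on chromosome 20 to 0.70 on chromosome 18.

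Within genes, a position in the window at the MANE start alone was found in 854 genes, at 1 or more downstream starts alone in 688, at both in 116, and at neither in 4959. Genes have more downstream starts than MANE starts, so these gene counts are not a comparison of rates.

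Outside islands, the estimate of each group of downstream starts compared below lay under that of the MANE starts. For sites with TATAAA the interval still included the MANE value. Below 40% GC the interval of the difference included 0. The complete starts had a log2 ratio of 0.27 (0.14 to 0.39) in the window, and the starts not found had -0.028 (-0.19 to 0.13), a difference of 0.29 (0.091 to 0.50) that was 0.17 (-0.035 to 0.37) with the GC expectation. The complete starts still differed from the MANE starts by -1.08 (-1.27 to -0.88), below 0 on 22 of 22 chromosomes. The 402 sites with a CAGE tag had 0.59 (0.050 to 1.09), from 36 positions. They differed from the MANE starts by -0.75 (-1.31 to -0.23) and from complete starts without the tag by 0.34 (-0.21 to 0.86). By transcript support level, GENCODE's grade of the evidence for a transcript from 1 (best) to 5, the ratio was highest at level 4, 0.62 (0.29 to 0.93, 938 sites), and 0.14 at level 1, so it did not follow the order of the grades. Starts before the MANE coding sequence had 0.36 and those within it 0.069, a difference of 0.29 (0.057 to 0.52), higher before it on 17 of 22 chromosomes.

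Distance and sequence at the start gave smaller steps. By distance from the MANE start, the ratio outside islands was 0.10 at 2 to 5 kb, 0.15 at 5 to 20 kb, 0.11 at 20 to 100 kb and 0.21 over 100 kb, and all of their intervals overlapped. Complete starts outside islands with CA, CG, TA or TG at -1 and +1 had 0.29 (0.088 to 0.49), and those without had 0.25 (0.076 to 0.41). With GGGCGG upstream the ratio was 0.15 (-0.36 to 0.62, 405 sites) and without it 0.27 (0.14 to 0.41). The 64 sites with TATAAA gave 5 positions, too few to place the ratio more closely than -1.27 to 1.73.

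**Figure D3:**
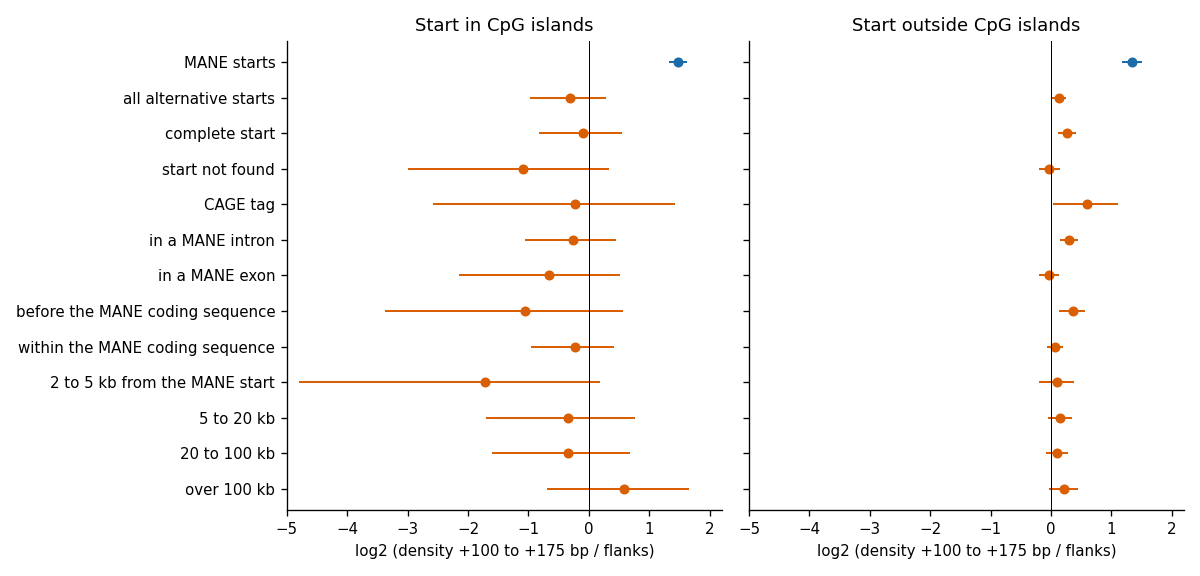
Log2 ratio of the density in the first nucleosome window to that of the flanks, in islands (left) and outside (right), with points for the estimate and lines for the exact 95% counting interval. The MANE starts, at 1.47 and 1.34, lie to the right of every group of alternative starts, whose intervals in islands rest on 25 positions in all.

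Within bands of equal GC content from -200 to +50 bp, outside islands, complete downstream starts were again below MANE starts. At 50 to 60% GC the complete starts had a log2 ratio of 0.25 and the MANE starts 1.74, a difference of -1.49 (-1.83 to -1.16). At 60 to 100% GC the values were -0.12 and 1.16, a difference of -1.28 (-1.73 to -0.85). At 40 to 50% GC they were 0.38 and 1.03, a difference of -0.64 (-1.08 to -0.19). Below 40% GC the MANE starts had only 16 positions in the window, and the difference of -0.64 (-1.46 to 0.27) was not distinguishable from 0 at this depth.

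Compared with ordinary exon boundaries, the downstream starts outside islands were hard to tell apart in this window. Internal exon starts of the same genes, the first bases of later MANE exons, had 1.04 per kb there and a log2 ratio of 0.077. The downstream starts differed from them by 0.062 (-0.045 to 0.17). The complete starts were slightly higher, by 0.19 (0.052 to 0.32), or 0.13 (-0.0069 to 0.26) with the GC expectation. Internal exon starts were highest at +50 to +75 bp, at 1.74 per kb, within exons of median length 124 bp, and lowest at -75 to -50 bp, at 0.642 per kb. In islands the exon starts gave only 4 positions in the window, and the downstream starts lay above them by 2.38 (0.82 to 4.37). Only 2 chromosomes had a position in that window in both sets, with the difference below 0 on 1 and above 0 on 1. The starts not found outside islands followed the exon starts in order, with 1.21 per kb at +50 to +75 bp and 0.661 at -100 to -75 bp.

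The highest bin near the complete intronic starts outside islands was not the same in groups by the length of their first exon. A shift with that length was not tested. For 1267 starts with a first exon under 100 bp the highest bin near the start was 0 to +25 bp, at 1.55 per kb (1.14 to 2.05). The bin +75 to +100 bp had 1.33 (0.96 to 1.79, 42 positions), an interval that overlaps it. For 1643 starts with a first exon of 100 to 200 bp it was +25 to +50 bp, at 1.73 (1.35 to 2.18, 71 positions), with nearly the same value at +75 to +100 bp, 1.70 (1.33 to 2.15, 70 positions). For 2482 starts with a first exon of 200 bp or more it was the bin that ends at +150 bp, at 1.32 (1.05 to 1.64), the same bin as at MANE starts. That last group had a log2 ratio of 0.34 (0.13 to 0.54) in the first nucleosome window, which differed from the MANE starts by -1.0 (-1.26 to -0.75). The bin of the maximum was picked from the values and is a description.

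**Figure D4:**
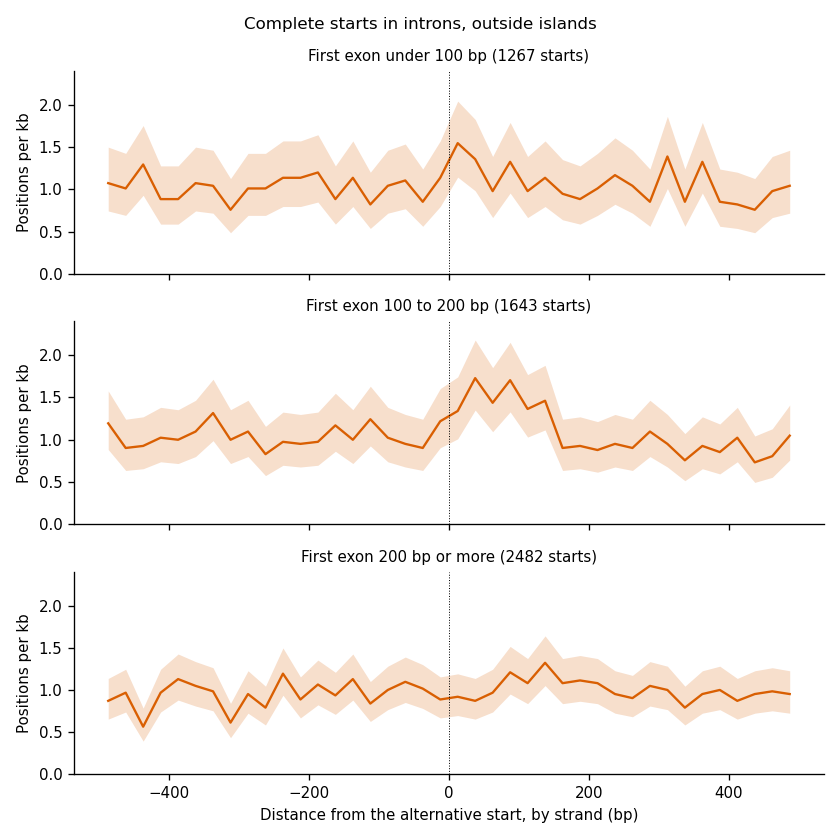
Listed positions per kb in 25 bp bins against distance from complete alternative starts in MANE introns, outside islands, split by the length of the first exon, with shaded exact 95% counting intervals. The highest bins near the start end at +25, +50 and +150 bp, at 1.55, 1.73 and 1.32 per kb, and the middle group has 1.70 in the bin that ends at +100 bp.

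The gap over the start, from -200 to +50 bp, had fewer positions than the flanks at starts in islands, and for MANE starts this did not hold under the GC expectation. Downstream starts in islands had 43 positions there, 0.308 per kb, a log2 ratio to their flanks of -1.26 (-1.75 to -0.81). Those outside islands had 0.975 per kb, a ratio of 0.063 (0.0028 to 0.12), so the sets differed by -1.33 (-1.82 to -0.87), below 0 on 15 of 16 chromosomes. With the GC expectation the ratio in islands was -0.59 and outside 0.0033. The MANE starts had -0.82 (-0.97 to -0.67) in islands and 0.068 (-0.065 to 0.20) outside, and 0.050 and -0.10 with the GC expectation. That expectation came from the same list with starts and islands included. Any low density at island starts is therefore partly in it, and it cannot show that a gap was absent. Downstream minus MANE was -0.45 (-0.96 to 0.039) in islands and -0.0059 (-0.15 to 0.14) outside, both intervals including 0. The value in islands depended on the processing. It was -0.64 (-1.15 to -0.16) with the GC expectation, and it also excluded 0 with flanks of 1000 to 2000 bp (-0.69), looser islands (-0.44) and sites 5 kb or more from the MANE start (-0.66). From -150 to 0 bp it turned to 0.33 (-0.34 to 0.95).

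The lowest bin of the gap in islands was not the same in the sets. At MANE starts it was -25 to 0 bp, with 4 positions or 0.036 per kb. At downstream starts it was +25 to +50 bp, with 0 positions, which allows up to 0.264 per kb. That interval includes 0.036, and both bins were picked from the values, so a difference in shape was not shown. Internal exon starts in islands, 402 sites with no start of their own by the rule, also had a low gap window, 0.398 per kb and a ratio of -1.10 (-1.62 to -0.63). Counted by site, 9859 of the 12329 downstream starts (80.0%) had no position in the gap window, against 85.8% of all MANE starts. These were 519 of 559 downstream starts in islands (92.8%) and 9340 of 11770 outside (79.4%). The shares over all MANE starts were 91.8% in islands and 77.7% outside.

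At single sites the list is thin, and most starts cannot be described on their own. No position within 1 kb on either side was listed for 3220 of the 12329 sites (26.1%). The arrangement of an open start, with no position from -200 to +50 bp, 1 or more in the first nucleosome window and 1 or more from +270 to +350 bp, was seen at 81 sites (0.657%), against 1.77% of all MANE starts. Internal exon starts showed it in 463 of 65286 (0.709%). In islands the arrangement occurred at 1 of 559 downstream starts (0.179%), against 1.31% of MANE starts. That site was in BRD2, which encodes a bromodomain protein, at chr6:32972217. Outside islands it occurred at 80 of 11770 (0.680%), against 2.39% of MANE starts. The 5 of these with the most positions from +100 to +1000 bp were in FST, CEACAM16, FGR, KCNJ10 and SEMA3F, with 5 to 7 positions there. Those in FST, KCNJ10 and SEMA3F had a start not found and lay in MANE exons, so their first base need not be a start of transcription. Those in CEACAM16 and FGR were complete starts in MANE introns. The values chose these sites, so they are a description.

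Among 39 genes known for internal promoters, 36 had a member, and ERG, PLEC and RUNX3 had none. Their 161 sites included 106 complete starts and 17 in islands. No position lay in the gap window at 129 of the 161, and 11 of the 161 had a position in the first nucleosome window. Of their 36 MANE starts, 2 had one. Over all downstream starts these shares were 80.0% and 7.26%, and 14.7% of the MANE starts of all 6617 genes had a position in the first nucleosome window. The number of positions within 1 kb ran from 0 to 9 with a median of 1.

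TP63 showed positions at both of its starts. The downstream start at chr3:189789659, 158270 bp from the MANE start, had positions at +55 and +100 bp, and the MANE start at chr3:189631389 had 1 at +171 bp. In its relative TP73, the site 29850 bp downstream had 9 positions within 1 kb, of which 2 lay in the gap window and 1 at +109 bp.

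The RUNX1 downstream start printed above, at chr21:34888690, had a single position within 1 kb, at -773 bp. Its neighbour in the same gene at chr21:34889790, also in an island, had only that same listed position, which lies at +327 bp from it. The start at chr21:34887183 had none. LEF1, a factor of Wnt signalling, had a downstream island start 2135 bp from its MANE start with 1 position, at +267 bp. CDKN2A, which encodes cell cycle inhibitors, had a site at chr9:21971400 with positions at -75 and -62 bp, inside the gap window. These lie closer together than the sequenced fragments are long.

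DST had 12 sites, of which 4 had no position within 1 kb and 1, the CAGE-tagged start at chr6:56542808 printed above, had a position at +126 bp. Its MANE start had none within 1 kb. The MACF1 island start at chr1:39409503, whose upstream stretch is 78% GC, had 1 position at -436 bp. ANK2, which encodes an ankyrin adaptor of the membrane skeleton, had a CAGE-tagged start at chr4:113116697 with positions at +155 and +310 bp and none in the gap window. That start is 67044 bp downstream of the MANE start and lies outside islands.

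Of 12 genes of pigment epithelium and eye, 9 had members and RPE65, TIMP3 and TYR had none. Their 20 sites included 17 complete starts and 2 in islands, and 1 of the 20 had a position in the first nucleosome window, against 7.26% of all downstream starts. That site was in MITF, 19240 bp downstream of the MANE start, with positions at -764, -382, -261 and +171 bp. The MITF start 126760 bp downstream, which has a CAGE tag, had positions at -375 and -209 bp, and the other 3, the melanocyte-type start at chr3:69936587 included, had none within 1 kb. PAX6, a regulator of eye development, had 7 sites within 7649 bp of its MANE start. Its island start at chr11:31805795 had positions at -119 bp, inside the gap window, and at +912 bp. The one at chr11:31804267 had 1 at -616 bp, which is the same listed position as that at +912 bp. BEST1, a chloride channel of the pigment epithelium, had a site at chr11:61955157 with positions at -239, -92 and +323 bp, and the OTX2 site at chr14:56805667 had none.

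**Figure D5:**
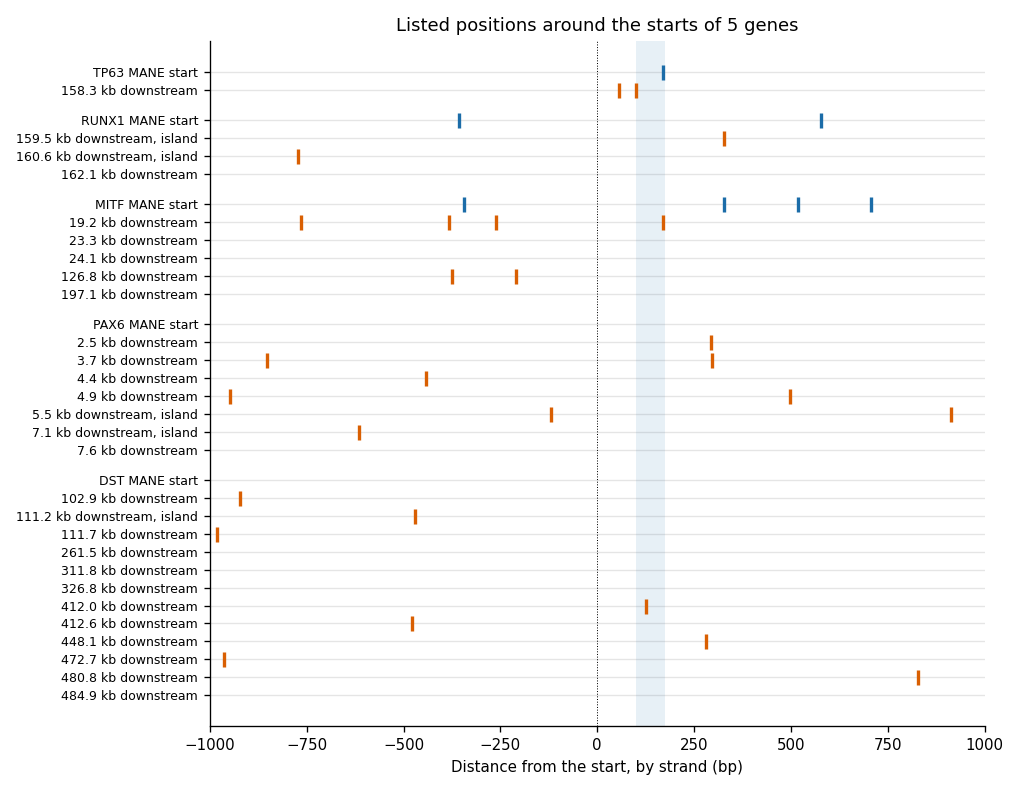
Listed positions within 1 kb of the MANE start and of each downstream start of TP63, RUNX1, MITF, PAX6 and DST, against distance from that start by strand, with the first nucleosome window shaded. Most rows hold 0 to 2 positions, and the MITF MANE start and the MITF start 19240 bp downstream hold 4 each. A position within 1 kb of several starts appears in each of their rows.

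The genes with the most downstream starts were SEPTIN9 and TCF4, with 16 each, GBF1 with 15, and ANK3 and SYNE1 with 14 each. The 16 sites of TCF4, a transcription factor of the E protein class, had 36 positions within 1 kb, with 0 to 5 at a site. This total counts a position once for each site that it lies near. In the first nucleosome window, 3 of the 16 had a position, against 7.26% of all downstream starts. The 16 sites of SEPTIN9, which encodes a filament-forming GTPase, were all complete starts and had 20 positions, counted in the same way. Of the 16, 1 had a position in that window, beside the same 7.26%. All 15 sites of GBF1 had a start not found.

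A few sites held far more positions than the rest. The PDE4DIP site at chr1:148889403 had 28 within 1 kb, the KCNJ12 site at chr17:21405136 had 27, and another PDE4DIP site had 24. In islands the highest was again PDE4DIP, with 14 at chr1:148951937, followed by LSP1 with 7. PDE4DIP and KCNJ12 have near-identical copies elsewhere in the genome, and reads from copies cannot be told apart where the sequence is the same. Whether this bears on their counts was not tested.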

How the data were processed

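Nucleosome positions were taken from 1 deposited list of 1 bp intervals on hg38. The submitters' processing notes name Bowtie2 and the builds hg38 and GRCh38. The version and settings of the aligner, the caller, its threshold, any fragment-length filter, the pooling of the batches and the read depth are not given in the sources used here. The list's sequence names were all found in the reference, and no position lay past the end of its sequence.

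Repeats were removed and positions were counted by strand around each site, per kb of determined bases. Distance 0 is the first base of the transcript. Internal exon starts were the first bases of later MANE exons of the same genes. An island was a stretch of hg38 over 500 bp, with 55% GC or more and a ratio of observed to expected CpG above 0.65, from a running sum of 17 for a CpG and -1 elsewhere. The GC expectation gives each base the genome-wide density of positions for its GC content in 200 bp, in bins of 2%. It was built from the same list, with starts and islands included. Log2 ratios compare 2 densities with an exact conditional interval at 95%, and differences between sets use the exact interval of an odds ratio. Without replicates no p-value is given. Window counts and intervals were tested on simulated data.

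Named genes were genes known for internal promoters, eye genes, the 5 genes with the most members, the 5 members in islands and the 5 outside with the most positions, and members with the open arrangement. The last 2 kinds were chosen by their values. Values of 1 listed gene are not reported here. The members, the lists and the first nucleosome window were chosen with earlier results of these data known. Intervals came from scipy 1.17.1, and counts used numpy 2.4.6 in Python 3.11.15.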

Additional observations from a re-analysis of the deposited data

How the results depend on the processing

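Of 118 alternatives over 12 results, 87 kept the direction and the side of 0 of the interval, 12 reversed, 12 became weaker and 7 stronger. Downstream minus MANE starts in the first nucleosome window stayed below 0 in each of its 10 alternatives, from -2.47 to -1.26 in islands and from -1.45 to -0.81 outside. All of these used a window placed on the MANE maximum. The gap at downstream starts in islands ran from -1.80 to -0.59.

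The small ratios moved. Outside islands the gap at downstream starts was -0.00031 from -150 to 0 bp, 0.050 with flanks of 1000 to 2000 bp, 0.0033 with the GC expectation, 0.054 with positions closer than 100 bp merged, 0.059 without chromosomes 9 and 15, 0.055 for sites 2 kb or more from other starts, and 0.032 for the most upstream site of each gene. Against MANE starts outside islands it became 0.18, 0.10, 0.043, 0.025, 0.0027 and 0.013 with the narrower window, the GC expectation, merging, complete starts, isolated sites and sites 5 kb or more away. Against MANE starts in islands it was 0.33 with the narrower window, and -0.69, -0.64, -0.44 and -0.66 with far flanks, the GC expectation, looser islands and sites 5 kb or more away, intervals that exclude 0.

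In the first nucleosome window the ratio in islands was -0.85 with far flanks, 0.32 with the GC expectation and 0.22 for the most upstream sites. Outside it was 0.045 with the GC expectation, 0.11 for isolated sites and 0.055 for the most upstream sites. Against internal exon starts it was 0.17 for complete starts and -0.023 for the most upstream sites, and the gap difference from exon starts, 0.20, fell to 0.026 with the GC expectation. Complete against not-found starts gave gap differences in islands of -0.092 with looser islands and 2.44 at 5 kb or more, and outside of 0.065 with the GC expectation and 0.14 for the most upstream sites. The cause of the other changes was not tested.

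No paired analysis was possible because the list does not tell the batches apart. For the same reason no replicate was left out, and the list has no score for a stricter selection. The unknown read depth limits statements on single sites.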
